A study of Drosophila melanogaster with 8 samples.

Results

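Hrb87F is an hnRNP gene, and its probe set had the highest log2 change in elav-dimm over control embryos, averaged over 2 stages, among all probe sets tested in this series. It is described here with 4 related hnRNP genes (Hrb98DE, Hrb27C, sqd and glo) and 4 genes of neuronal RNA-binding proteins (elav, fne, Rbp9 and cpo). Members are the probe sets whose only gene symbol in the platform's probe-to-gene table is one of these 9 names. The rule found 12 probe sets of 8 genes among 13646 single-gene probe sets of 11982 genes, and sqd had no such probe set, so it was not analysed here. Of the 12, 10 had log2 signals above 4 on 2 or more of the 8 arrays and were tested among 8258 probe sets, while the second probe set of Rbp9 and the third of cpo lay at the lowest value on all 8 arrays. Hrb87F was chosen for its difference between elav-dimm and control, so that difference is given as a description with no test. The other members were chosen by family, with earlier results of these data known.

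The series measured total RNA of whole dechorionated Drosophila melanogaster embryos on Affymetrix Drosophila Genome 2.0 arrays, whose short probes mostly lie toward the 3′ ends of transcripts. The elav-dimm embryos had the genotype w;UAS-dimm2A3/+;elav-GAL4/+, in which a myc-tagged copy of dimm (dimmed, a basic helix-loop-helix factor of neuroendocrine cells) is switched on by GAL4 under elav control, which is active across neurons. The control embryos were of the elav-GAL4 parental line, w;;elav-GAL4, so both genotypes carry the white mutation and the driver, and they differ in the UAS transgene, in GAL4 dose and in the paternal chromosomes. Adult flies were reared at 25 °C, and crosses and egg collections of all groups were kept at 18 °C. There were 4 groups of 2 arrays: stage 16 elav-dimm and stage 16 control (28 to 32 h old), and stage 14 elav-dimm and stage 14 control (22 to 26 h per the sample labels, 24 to 26 h per the series text). The series text may mean that both arrays of a group came from the same RNA sample, so the p-values rest on spread between arrays that can be technical. A whole embryo holds many cell types, and fewer cells of a type cannot be told apart from less RNA per cell.

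hnRNPs coat nascent transcripts in the nucleus and act in splicing, export, localisation and translation of mRNA. Hrb87F and Hrb98DE are close relatives of the vertebrate hnRNP A/B proteins, Hrb27C and sqd are further members of that branch with roles in the localisation of maternal mRNAs, and glo is a relative of hnRNP F/H that represses nanos translation. ELAV proteins bind U-rich and AU-rich sequences in neurons, where elav controls alternative splicing and polyadenylation, and fne and Rbp9 are its fly paralogs. The gene cpo (couch potato) encodes an RNA-recognition-motif protein of the nervous system.

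The dimm probe set, which checks the transgene, was brighter on all elav-dimm arrays. Its log2 signal was 5.51 and 8.26 in stage 16 elav-dimm embryos, against 2.53 and 2.68 in stage 16 control embryos, and 7.59 and 7.66 in stage 14 elav-dimm embryos, against 2.86 and 2.80 in stage 14 control embryos. The 5′ probe set of the actin control transcript was dim on both replicate 1 arrays of stage 16 (5.64 in elav-dimm and 4.72 in control, against 9.47 and 10.04 on the replicate 2 arrays of the same genotypes). Between 7574 and 7651 probe sets lay above 4 on each array, and precision is limited by having 2 arrays per group.

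Hrb87F was bright in elav-dimm embryos and dim in control embryos at both stages. Its log2 signal was 11.33 and 11.46 on the stage 16 elav-dimm arrays, against 5.20 and 5.25 on the stage 16 control arrays. At stage 14 it was 11.83 and 12 on the elav-dimm arrays, against 5.86 and 6.38 on the control arrays. The groups were far apart with no overlap, and the control signals stayed above 4, so they did not lie at the lowest value of the arrays. The difference was a log2 of 6.17 ± 0.18 at stage 16 and 5.79 ± 0.18 at stage 14 (SE, 2 arrays against 2), which is 72.0-fold and 55.5-fold, and 5.98 ± 0.13 averaged over the stages, or 63.2-fold. These values chose the gene and are not a test. The order of the largest changes is not firm. GILT3, a thiol reductase family gene, had an averaged change of 5.78 from control means below 4, and at stage 14 its 5.82 exceeded that of Hrb87F, which ranked 3 there and 1 at stage 16.

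The size of the Hrb87F difference did not differ detectably between the stages: the stage 16 difference exceeded that of stage 14 by a log2 of 0.38 ± 0.26 (95% interval -0.28 to 1.03, adjusted p = 1 in limma), and by 0.63 or 0.12 without stage 14 control replicate 1 or replicate 2. On the stage 16 elav-dimm arrays of replicate 1 and replicate 2, Hrb87F read 11.33 and 11.46 and dimm read 5.51 and 8.26. The replicate 1 array is also an array with the low 5′ actin signal. The part of that in the dimm value was not tested, so these 2 arrays do not show how Hrb87F relates to dimm level. Hrb87F has 1 probe set on the array, a set that by its name ending (_a_at) is meant to detect several transcripts of 1 gene, so no second probe set checks its level.

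**Figure D1:**
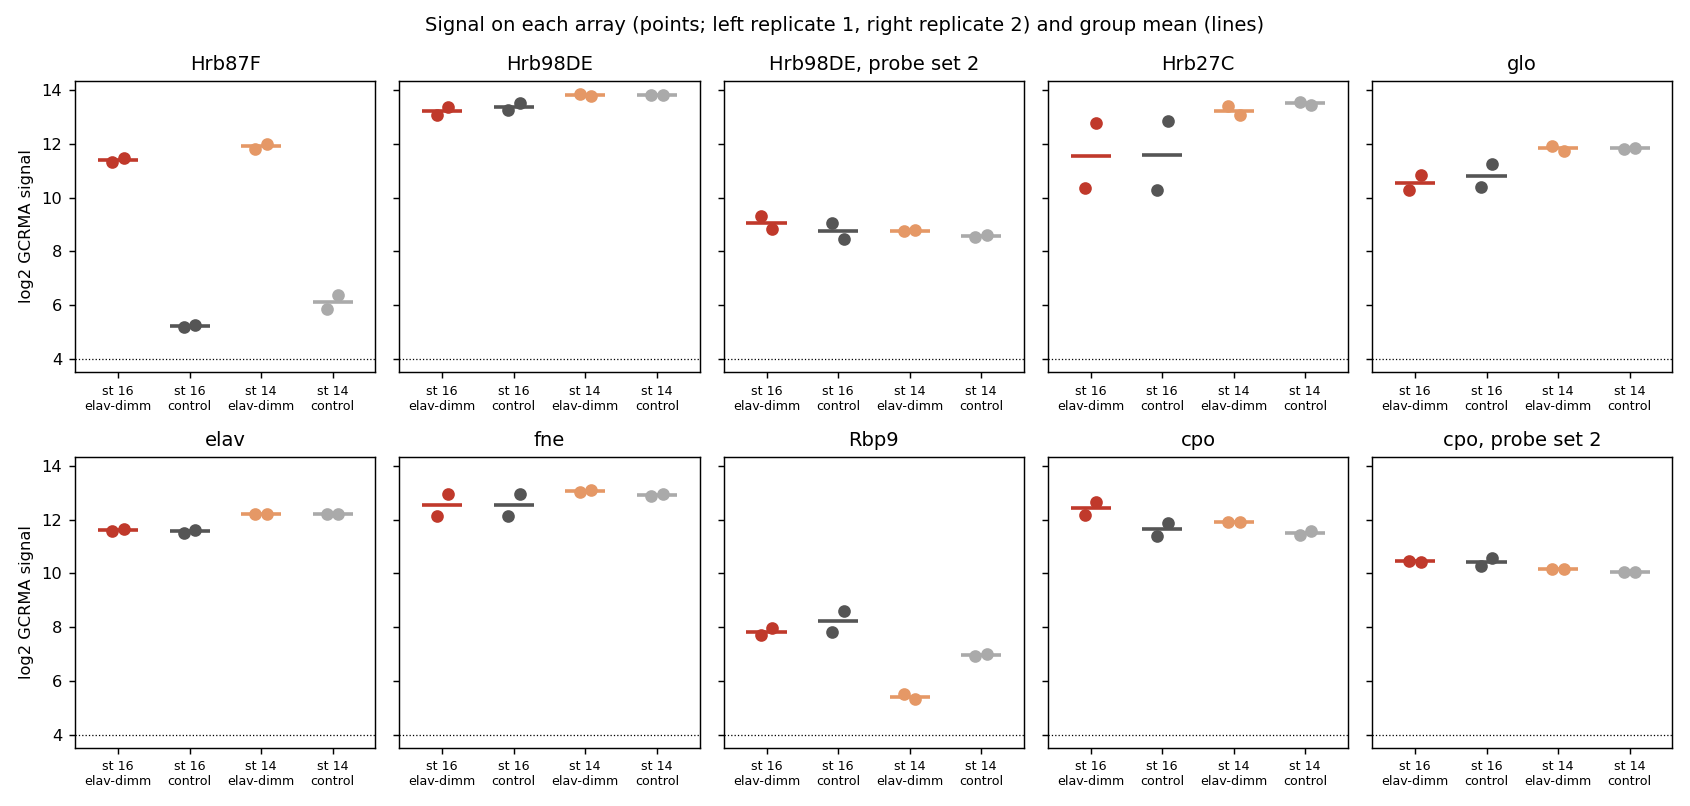
Log2 GCRMA signal (y axis, shared) of the 10 tested probe sets of the members on each of the 8 arrays (points) with group means (lines), and a dotted line at 4. Hrb87F is at 11.33 to 12 on the elav-dimm arrays and at 5.20 to 6.38 on the control arrays, while the points of elav in both genotypes of a stage lie on top of each other.

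The genes beside Hrb87F on chromosome arm 3R did not share its difference. Of the 5 genes on each side of it in the RefSeq gene order that have a single-gene probe set, 5 were bright enough to test, and none passed an adjusted p of 0.05 in limma, in the fit of group means or with the replicate block. B52, the SR protein gene that is its nearest such neighbour on one side, had mean log2 signals of 13.29 in stage 16 elav-dimm and 13.11 in stage 16 control embryos, and 13.78 in stage 14 elav-dimm and 13.66 in stage 14 control embryos. Its averaged change was 0.15 ± 0.05 (adjusted p = 0.357). B52 has 5 single-gene probe sets, and these values are of the brightest alone. The gene rin, a relative of the stress granule protein G3BP, changed by -0.02 ± 0.35, and CG9588, omd and flfl changed by -0.02, 0.01 and 0.00. The other 5 genes, among them Rbp4, the nearest on the other side, did not rise above 4 on 2 arrays. The RefSeq table lists 2 genes between Hrb87F and its relative sqd.

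**Figure D2:**
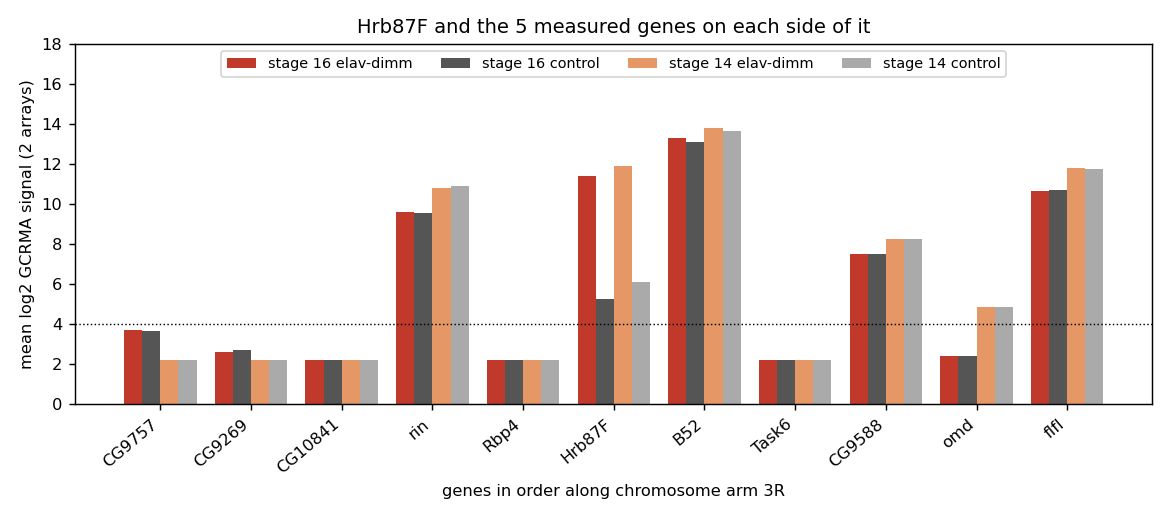
Mean log2 GCRMA signal (bars from 0, 2 arrays each) of Hrb87F and the 5 measured genes on each side of it, in their order along chromosome arm 3R, for the 4 groups. Hrb87F alone has bars of clearly unequal height between elav-dimm and control, while B52, its neighbour, has 13.29 and 13.11 at stage 16.

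By pattern over the 8 arrays, the genes most like Hrb87F were GILT3 (Pearson r = 0.997), CG11367 (0.978), Rnf11 (0.975), CG8745 (0.971) and Grp170 (0.969), out of 6865 other genes. The likeness covers direction and not size: the averaged change was 5.78 for GILT3, 5.0 for Rnf11 and 2.59 for CG8745, against 0.51 for CG11367 and 0.58 for Grp170. GILT3 had mean log2 signals of 8.72 in stage 16 elav-dimm and 2.99 in stage 16 control embryos. Among the other members, cpo came nearest, with r = 0.718 at rank 131, while Hrb98DE (r = -0.04) and Hrb27C (r = 0.04) had no likeness to it. These values over 8 arrays of 4 groups rest mostly on the difference between genotypes and are descriptions.

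For the members other than Hrb87F the call depended on the replicate block. For the change averaged over the stages, 0 of 9 tested probe sets of the other 7 genes passed an adjusted p of 0.05 in limma. Of all probe sets 1.5% passed. An unadjusted p under 0.05 was found for 2 of the 9 (Rbp9 and cpo) and for 994 of all 8258 probe sets. The median over the 7 genes, each by its brightest probe set, was -0.08, against 0.00 over all probe sets tested. At each stage alone 0 of 9 passed as well, where 0.339% of all probe sets passed at stage 14 and 0.363% at stage 16. The unadjusted p was under 0.05 for 1 of the 9 at each stage (Rbp9 at stage 14 and cpo at stage 16). Of all 8258 probe sets it was so for 661 at stage 14 and 658 at stage 16. With same-numbered arrays of a stage taken as a replicate block, 2 of 9 passed for the averaged change, cpo higher and Rbp9 lower, where 7.74% of all probe sets passed (4.44% higher and 3.29% lower). With that block 1 of 9 passed at stage 14 (Rbp9), where 1.9% of all probe sets passed, and 1 of 9 at stage 16 (cpo), where 2.65% passed. The same pair passed with both stage 16 replicate 1 arrays left out, where 9.88% of all probe sets passed and the stage 16 comparison rests on 1 array against 1.

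Hrb98DE, the closest relative of Hrb87F among the members, had nearly equal signals in both genotypes. Its brighter probe set read 13.08 and 13.39 in stage 16 elav-dimm embryos, against 13.25 and 13.53 in stage 16 control embryos, and 13.85 and 13.80 in stage 14 elav-dimm embryos, against 13.83 and 13.84 in stage 14 control embryos. The arrays of the genotypes overlapped at both stages. The averaged change was -0.08 ± 0.10 (95% interval -0.34 to 0.17, adjusted p = 0.939), an interval that does not reach the size seen in Hrb87F. Its second probe set read 9.31 and 8.83 in stage 16 elav-dimm and 9.06 and 8.47 in stage 16 control embryos, and 8.75 and 8.80 in stage 14 elav-dimm and 8.54 and 8.62 in stage 14 control embryos. That probe set changed by 0.25 ± 0.17 (adjusted p = 0.735, and 0.0553 with the block). Its arrays lay apart at stage 14, which is given as a description, and overlapped at stage 16.

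Hrb27C varied most between arrays of 1 group. It read 10.35 and 12.79 in stage 16 elav-dimm embryos, against 10.27 and 12.87 in stage 16 control embryos, and 13.41 and 13.08 in stage 14 elav-dimm embryos, against 13.58 and 13.44 in stage 14 control embryos. The low pair at stage 16 are the replicate 1 arrays of both genotypes, those with the low 5′ actin signal, and the part of that signal in the Hrb27C values was not tested. In the fit of group means the averaged change was -0.13 ± 0.77 (95% interval -2.06 to 1.80). That interval is so wide that a change of several fold in either direction was not detectable in this fit. With same-numbered arrays as a block the error was far smaller, at -0.13 ± 0.06 (adjusted p = 0.247).

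The hnRNP F/H relative glo overlapped between genotypes at both stages. It read 10.27 and 10.84 in stage 16 elav-dimm embryos, against 10.41 and 11.24 in stage 16 control embryos, and 11.94 and 11.73 in stage 14 elav-dimm embryos, against 11.81 and 11.87 in stage 14 control embryos. Its averaged change was -0.13 ± 0.23 (95% interval -0.70 to 0.44, adjusted p = 0.989).

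The signal of elav itself, the gene whose regulatory sequence drives GAL4, had the smallest standard error of the averaged change among the 10 tested probe sets. It read 11.56 and 11.67 in stage 16 elav-dimm embryos, against 11.51 and 11.63 in stage 16 control embryos, and 12.23 and 12.21 in stage 14 elav-dimm embryos, against 12.23 and 12.21 in stage 14 control embryos. The averaged change was 0.02 ± 0.06, with a 95% interval of -0.13 to 0.17 (adjusted p = 1). Its paralog fne read 12.15 and 12.95 in stage 16 elav-dimm embryos, against 12.13 and 12.96 in stage 16 control embryos, again with the replicate 1 arrays lower. At stage 14 fne read 13.02 and 13.12 in elav-dimm and 12.87 and 12.97 in control embryos, and its averaged change was 0.08 ± 0.25 (95% interval -0.56 to 0.71, adjusted p = 1).

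Rbp9, the third ELAV gene, read lower on both elav-dimm arrays of stage 14. It read 5.50 and 5.31 on the stage 14 elav-dimm arrays, against 6.92 and 6.99 on the stage 14 control arrays, with no overlap. The share of all probe sets with such a separation at stage 14 is not given here, so the separation is a description only. At stage 16 Rbp9 read 7.70 and 7.95 in elav-dimm embryos, against 7.83 and 8.59 in control embryos, and the groups overlapped. The change was -0.38 ± 0.26 at stage 16 (adjusted p = 0.869, and 0.24 with the block), with -0.77 and -0.0031 when stage 16 control replicate 1 or replicate 2 was left out, and -1.55 ± 0.26 at stage 14 (adjusted p = 0.143, and 0.0396 with the block). Averaged over the stages it was -0.97 ± 0.18 (0.511-fold, adjusted p = 0.0946), and it was past the threshold with the replicate block (adjusted p = 0.027). Without the stage 16 control array of replicate 1 the averaged change was -1.16 and passed (adjusted p = 0.0386). The difference between the stages, 1.17 ± 0.37, was not past the threshold (adjusted p = 1, and 0.299 with the block), so a difference between stages is not shown. Of all 10 tested probe sets, 0 passed for such a difference, where 0.0121% of all probe sets passed. An unadjusted p under 0.05 was found for 1 of the 10 (Rbp9) and for 249 of all 8258 probe sets.

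The brighter probe set of cpo was higher on both elav-dimm arrays of each stage. It read 12.17 and 12.67 in stage 16 elav-dimm embryos, against 11.39 and 11.89 in stage 16 control embryos, and 11.91 and 11.92 in stage 14 elav-dimm embryos, against 11.42 and 11.58 in stage 14 control embryos. Such a separation at both stages, with the same sign, was found for 12.0% of all probe sets tested, and 6.78% were higher. The averaged change was 0.60 ± 0.16, or 1.51-fold (adjusted p = 0.215), and it was past the threshold with the replicate block (0.60 ± 0.05, adjusted p = 0.0168). The change was 0.78 ± 0.23 at stage 16 (adjusted p = 0.382, and 0.034 with the block) and 0.42 ± 0.23 at stage 14 (adjusted p = 0.926, and 0.0886 with the block).

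The second probe set of cpo did not pass the threshold, also with the block. It read 10.48 and 10.42 in stage 16 elav-dimm embryos, against 10.27 and 10.56 in stage 16 control embryos, and 10.16 and 10.16 in stage 14 elav-dimm embryos, against 10.06 and 10.06 in stage 14 control embryos, for an averaged change of 0.06 ± 0.08 (adjusted p = 0.938). Within each array the first exceeded the second by a log2 of 1.69 and 2.25 in stage 16 elav-dimm embryos, against 1.12 and 1.33 in stage 16 control embryos, and by 1.75 and 1.76 in stage 14 elav-dimm embryos, against 1.36 and 1.52 in stage 14 control embryos. This gap was thus wider on both elav-dimm arrays of each stage, by 0.53 on average, while the second probe set at stage 14 was itself higher on both elav-dimm arrays. An exact two-sided permutation test of arrays within stages gave p = 0.0556 for cpo, and 0.111 after adjustment over the 2 genes with such a pair. The value of 0.0556 is the smallest that its 36 arrangements allow, and it lies above the threshold. The test could thus not pass whatever the signals were, and it does not decide whether the probe sets differ. For Hrb98DE the same gap differed by -0.33 (exact p = 0.333). RefSeq lists 12 protein records for cpo, and the files do not say which transcripts each probe set detects.

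**Figure D3:**
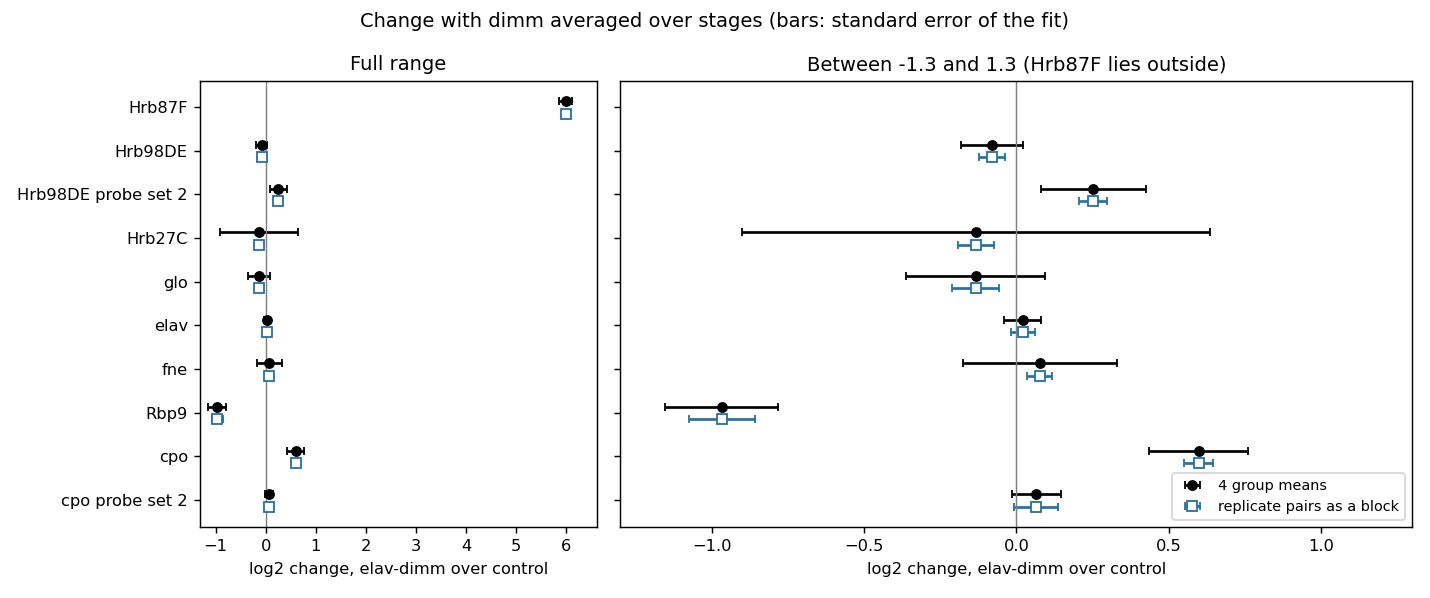
Log2 change of the 10 tested member probe sets in elav-dimm over control embryos, averaged over the stages (x axis), from the fit of group means (filled circles) and with replicate pairs as a block (open squares); bars are standard errors, and the right panel enlarges the range around 0. Hrb87F stands at 5.98, Rbp9 at -0.97 and cpo at 0.60, and the block shortens the bars, most of all for Hrb27C.

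Other RNA-binding protein genes were read from 4 lists. Among 12 tested hnRNP and hnRNP-like genes, 0 passed for the averaged change with dimm in limma and 0 had an unadjusted p under 0.05; 10 changes were positive and the median was 0.06, against 0.00 over all probe sets tested. The highest value was that of sm (smooth, an hnRNP L relative), at 0.47 ± 0.27 (adjusted p = 0.644, and 0.0541 with the block). Among 8 SR and SR-like splicing factors 0 passed and 1 had an unadjusted p under 0.05, with 7 positive changes and a median of 0.12. Among 18 other RNA-binding proteins used in neurons 0 passed and 4 had an unadjusted p under 0.05, with a median of 0.03. In that list shep (alan shepard) changed by -0.36 ± 0.13 (adjusted p = 0.362) and was lower with the block (adjusted p = 0.0336), the 1 call of the 4 lists with the block. Among 13 general mRNA-binding and export factors 0 passed and 0 had an unadjusted p under 0.05, with a median of 0.02. Over all 8258 probe sets tested, 1.5% passed, 994 had an unadjusted p under 0.05 and 4176 changes were positive. With the block 7.74% of all probe sets passed, and 3.29% were lower.

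**Figure D4:**
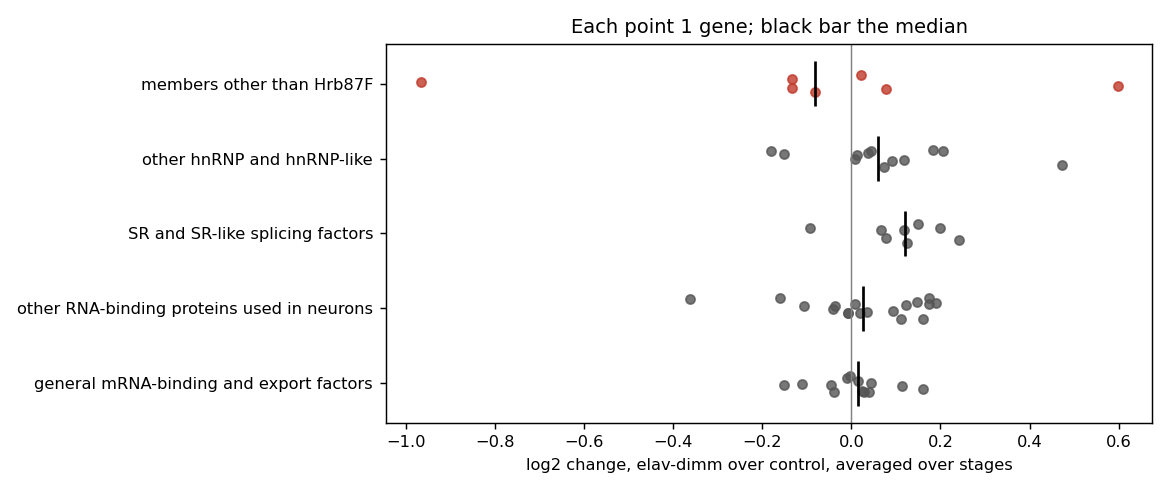
Averaged log2 change in elav-dimm over control embryos (x axis) of the 7 members other than Hrb87F and of the tested genes of 4 lists of RNA-binding proteins (points, 1 gene each, spread vertically for sight), with list medians as black bars. The list medians lie between 0.02 and 0.12, and Rbp9, cpo, sm and shep are the points farthest from 0.

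Markers of cell types were read in the same comparison. Among 12 tested neuron markers 0 passed for the averaged change in limma and 0 had an unadjusted p under 0.05 (median -0.04), while with the replicate block 1 was lower (Appl, -0.25, adjusted p = 0.0472). The markers brp, para and VGlut lay at or below 4 on all arrays. The summed signal of the 15 neuron markers on the array was a log2 of 14.94 to 15.02 in stage 16 elav-dimm and 14.95 to 14.96 in stage 16 control embryos, and 14.68 to 14.80 in stage 14 elav-dimm and 14.62 to 14.65 in stage 14 control embryos. Of 9 glial markers 1 fell (repo, a homeobox gene of glia, by 0.78 ± 0.08, adjusted p = 0.0256), with a summed signal of 13.77 to 14.17 in stage 16 elav-dimm and 13.87 to 14.33 in stage 16 control embryos, and 14.70 to 14.79 in stage 14 elav-dimm and 14.79 to 14.81 in stage 14 control embryos. Of 8 neuroblast markers 1 rose (pros, 0.48 ± 0.07, adjusted p = 0.0476), of 7 epidermis and cuticle markers 1 rose (Cpr49Ac, 0.66), of 4 germline and maternal markers 1 rose (mael, 3.38, with stage 16 control signals below 4), and of 5 muscle markers 0 passed, with 2 unadjusted p under 0.05. The replicate block gave 1 call up and 2 calls down among glial markers, 2 up among neuroblast markers, 1 up among epidermis and cuticle markers, and 1 each way among muscle and among germline markers. In the fit of group means 1.5% of all probe sets tested passed, and 994 of 8258 had an unadjusted p under 0.05. With the block 4.44% were higher and 3.29% lower. With so few markers a list, these counts do not show a shift of a cell type. The part of these markers in the changes of Rbp9 and cpo was not tested.

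The change in stage 16 over stage 14 embryos was not used to choose the members. The lowest signal of the table is 2.186 on the arrays of stage 16 and 2.182 on those of stage 14, and the sources used here do not give whether all arrays were normalised together, so levels set across the stages may come from separate normalisations. The median over all probe sets tested was -0.44 in elav-dimm and -0.38 in control embryos, and centring each array on its median moved these to -0.13 and -0.16. Calls were common: 63.5% of all probe sets passed in elav-dimm (20.7% higher, 42.8% lower) and 60.8% in control embryos (21.8% higher, 39.0% lower). Among the 10 member probe sets 4 passed in elav-dimm (1 higher, 3 lower) and 6 in control embryos (2 higher, 4 lower), shares near or below those of all probe sets.

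Rbp9 rose with stage, against the direction of the median. Stage 16 over stage 14 it rose by 2.42 ± 0.26 in elav-dimm embryos (adjusted p = 0.00063) and by 1.25 ± 0.26 in control embryos (adjusted p = 0.00891), and with arrays centred by 2.73 and 1.47. The call in control embryos was lost without the stage 14 control array of replicate 1 (1.22, adjusted p = 0.0529). For elav the change was -0.60 ± 0.09 in elav-dimm (adjusted p = 0.00194) and -0.65 ± 0.09 in control embryos (adjusted p = 0.00152), and with arrays centred -0.30 and -0.44, still past the threshold. Hrb87F changed by -0.52 ± 0.18 in elav-dimm embryos (adjusted p = 0.0529, and 0.0284 with the replicate block). In control embryos it changed by -0.89 ± 0.18 (adjusted p = 0.00856). With arrays centred these were -0.21 (adjusted p = 0.368) and -0.68 (adjusted p = 0.0248), and the call in control embryos was lost without the 2 stage 16 replicate 1 arrays (adjusted p = 0.0662) and with array weights (adjusted p = 0.16). The change in elav-dimm embryos passed without either stage 14 control array (adjusted p = 0.0183).

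The other members changed less firmly with stage. The change of glo was -1.28 ± 0.32 in elav-dimm (adjusted p = 0.0167) and -1.01 ± 0.32 in control embryos (adjusted p = 0.039), and after centring the second was not past the threshold (adjusted p = 0.0714). Hrb98DE changed by -0.59 ± 0.14 in elav-dimm (adjusted p = 0.0151) and -0.44 ± 0.14 in control embryos (adjusted p = 0.0434) by its brighter probe set, and after centring neither passed (-0.29 and -0.22). The calls of glo and Hrb98DE in both genotypes were lost without either stage 14 elav-dimm array. They were also lost without the stage 16 replicate 1 array of the same genotype, and in control embryos without either stage 14 control array (adjusted p of 0.0566 to 0.153 over all these). Hrb27C changed by -1.67 ± 1.09 in elav-dimm and -1.94 ± 1.09 in control embryos and did not pass. Without the stage 16 replicate 1 arrays these were -0.45 and -0.64, and without the stage 16 control array of replicate 2 the change in control embryos was -3.24 (adjusted p = 0.0463). The brighter probe set of cpo changed by 0.51 ± 0.23 in elav-dimm (adjusted p = 0.105, and 0.0436 with the replicate block) and 0.14 ± 0.23 in control embryos (adjusted p = 0.612). In elav-dimm embryos it passed after centring (0.81, adjusted p = 0.0234) and without the stage 16 elav-dimm array of replicate 1 (0.76, adjusted p = 0.048). The second probe set of cpo changed by 0.29 ± 0.11 in elav-dimm embryos (adjusted p = 0.0724). In control embryos it changed by 0.35 ± 0.11 (adjusted p = 0.0408, and 0.0523 with the replicate block). Its call in control embryos was lost without any 1 array except replicate 1 of the stage 16 control (adjusted p of 0.0561 to 0.143), and in elav-dimm embryos it passed after centring (0.59, adjusted p = 0.00575) and without either stage 16 control array (adjusted p = 0.0172). The change of fne was -0.52 ± 0.36 in elav-dimm and -0.38 ± 0.36 in control embryos, and that of the second probe set of Hrb98DE was 0.29 and 0.18, and neither gene's probe set passed.

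**Figure D5:**
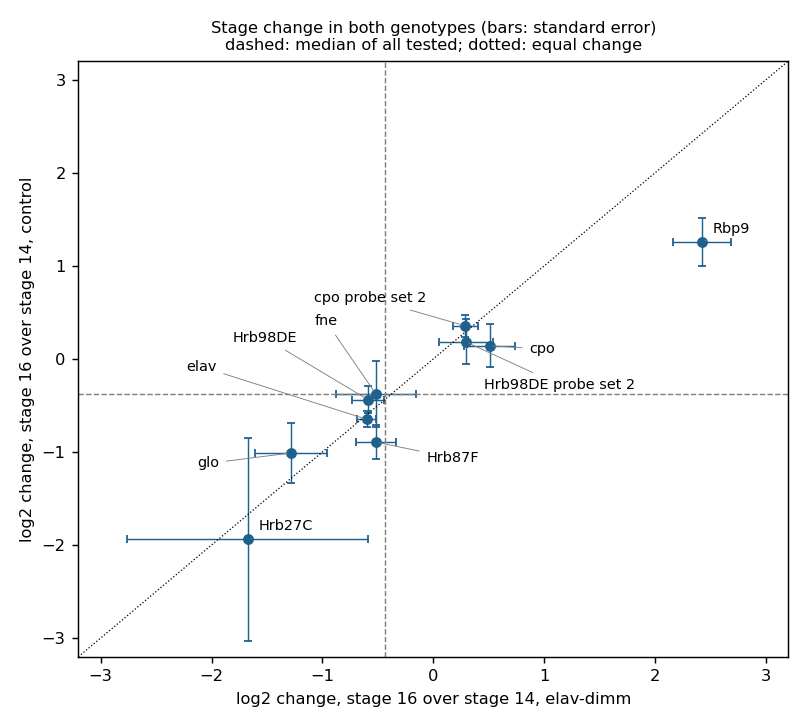
Log2 change of stage 16 over stage 14 for the 10 tested member probe sets in elav-dimm (x axis) and in control embryos (y axis), with standard errors, the medians of all probe sets tested (dashed) and the line of equal change (dotted). Rbp9 stands apart at 2.42 and 1.25, fne lies close to the medians of -0.44 and -0.38 (at -0.52 and -0.38), and Hrb27C has the widest bars.

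The profile of elav over the arrays was mostly that of stage. The genes most like it were Rubicon (r = 0.999), Ak3 (0.999) and wcy (0.998), whose stage changes in control embryos were -2.12, -2.76 and -1.13. Neuron markers as a list moved the other way in control embryos: 10 of 12 were higher at stage 16 than at stage 14 and none was lower, with a median of 1.63, among them Gad1, the glutamate decarboxylase gene (4.33), nSyb, a synaptic vesicle gene (4.20), and cac, a calcium channel gene (4.18). The mean stage 14 signals of these 3 genes lay below 4, so these changes depend on the background correction. Among the other RNA-binding proteins used in neurons 6 of 18 rose and 4 fell. The CPEB gene orb2, with a role in long-term memory, rose by 3.74 ± 0.09 (adjusted p = 4.02e-06) and the Musashi relative Rbp6 by 2.32 ± 0.11 (with a stage 14 mean below 4), while brat, a translational repressor of neural stem cell progeny, fell by 1.96 ± 0.30.

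In stage 16 over stage 14 control embryos, the other lists were counted beside a median of -0.38 over all probe sets tested. Of 8 SR and SR-like genes 7 fell and none rose, with a median of -0.56, and tra2 and tra, which act together in sex-specific splicing, fell by 1.5 and 1.22. Of 13 general mRNA-binding and export factors 7 fell and none rose, with a median of -0.65, and the cap-binding complex genes Cbp80 and Cbp20 fell by 1.27 and 1.09. Of 12 hnRNP and hnRNP-like genes 5 fell and 1 rose, with a median of -0.54, with HnRNP-K lower (-0.85 ± 0.14, adjusted p = 0.00337). The gene that rose, CG42458, had mean signals of 4.08 at stage 16 and 2.20 at stage 14, near the lowest value, so its change has no reliable size. These counts stand beside 39.0% of all probe sets lower and 21.8% higher in the same comparison. In elav-dimm embryos, 6 of 8 SR and SR-like genes, 8 of 13 general factors and 7 of 12 hnRNP genes fell, and 1 hnRNP gene rose, beside 42.8% lower and 20.7% higher.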

How the data were processed

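The deposited table holds log2 values of 18952 probe sets on 8 arrays, which the authors made with GCRMA 2.22.0 in R 2.12.1, per the submitters' processing notes, with limma named without a version. GCRMA corrects background by probe sequence, normalises by quantiles and summarises each probe set, so signals near its floor are background. After 183 control probe sets were left out, probe sets above 4 on at least 2 arrays (8258) were tested with limma 3.58.1 in R 4.3.3 on 4 group means (4 residual and 1.45 prior degrees of freedom), with Benjamini-Hochberg adjustment over all of them and a threshold of 0.05. Errors beside changes are standard errors. A gene is represented by its brightest single-gene probe set. Genes in lists were named if past the threshold, at most 4 a list, largest first, and sm and shep were named after their values were seen. Members and lists were chosen with earlier results of these data known. Gene names and order came from the RefSeq table of Release 6 plus ISO1 MT. The fits were run on simulated data with noise drawn independently for each array. That setting lacks the shared deviations of same-numbered arrays given below, so it does not check the fits under them. No sequence was used here.

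Same-numbered arrays of the genotypes deviated together from their group means at stage 16 (correlation over probe sets 0.906). At stage 14 they did so little (0.155), as did those of different stages (-0.02 to 0.13). The replicate pairs of both stages were used as a block beside the changes with dimm. Block calls at stage 14 thus rest on a pairing that the arrays hardly show.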

Additional observations from a re-analysis of the deposited data

How the results depend on the processing

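For members other than Hrb87F, the count called for the averaged change with dimm was 0. It was 2 with the replicate block, 2 with both stage 16 replicate 1 arrays left out, and 0 to 1 when each array was left out in turn (1, Rbp9, without the stage 16 control array of replicate 1). At stage 14 the count of 0 became 2 with array weights (Rbp9 and cpo) and 1 with the replicate block (Rbp9), and at stage 16 it became 1 with the block (cpo). The shares of all probe sets that passed with array weights or with each array left out are not given here. Counts under those settings thus have no background. With the arrays of a group averaged, as if each pair were 1 RNA sample, the count was 0, with adjusted p of 0.351 for Rbp9 and 0.223 for cpo. Over all alternatives the adjusted p of the averaged change ran from 0.027 to 0.377 for Rbp9 and from 0.0168 to 0.608 for cpo. For stage 16 over stage 14, leaving out each array gave 2 to 5 members called in elav-dimm (2, elav and Rbp9, without either stage 14 elav-dimm array) and 2 to 6 in control embryos (2 without stage 14 control replicate 1, and 3 without stage 14 control replicate 2 or without either stage 14 elav-dimm array). There the replicate number, which did not pair arrays of different stages, gave counts of 6 in elav-dimm and 5 in control embryos as a block. Without the filter the stage calls included the probe sets of Rbp9 and cpo that lie at the lowest value, which differs between the stages by construction.

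Changes of either sign under some alternative were all of members that did not pass in the fit of group means. Leaving out each array gave averaged changes with dimm of -0.78 to 0.52 for Hrb27C, -0.13 to 0.28 for fne, -0.0076 to 0.0501 for elav, -0.34 to 0.0754 for glo and -0.0075 to 0.14 for the second probe set of cpo, which was -0.0220 without both stage 16 replicate 1 arrays. In control embryos the stage changes ran from -0.79 to 0.0368 for fne, from -0.11 to 0.48 for the second probe set of Hrb98DE and from -0.11 to 0.39 for cpo. Without both stage 16 replicate 1 arrays those of fne and of the second probe set of Hrb98DE were 0.0368 and -0.11. The stage 14 difference of Hrb87F ran from 5.54 to 6.05 and its averaged difference from 5.85 to 6.11. The cause of these shifts was not tested.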
